A study of Homo sapiens with 12 samples.

Results

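WB1 is a Dicer1 (+/-) clone of the papillary thyroid carcinoma cell line TPC1, and its RNA was set against that of parental TPC1 across all genes. The libraries were taken by name, 3 of WB1 and 3 of TPC1, which are 6 of the 12 libraries in the series. TPC1 was wild type at Dicer1, whereas WB1 carried a deletion of 7 nucleotides in one Dicer1 allele after transient transfection with a CRISPR/Cas9 plasmid. It was grown from a single sorted cell, so any difference between the lines is a difference between 1 clone and an uncloned parental population. D11 and TD5 (3 libraries each), further Dicer1 (+/-) clones made with the same guide, served to show where WB1 differed from them. All lines were kept in RPMI medium with fetal bovine serum, and the libraries were stranded mRNA libraries. The study describes its experiments in general as independently repeated, but the labels do not say whether the libraries of a line came from separate cultures, so the p-values measure the spread between these libraries, which may be technical. Values are scaled reads, that is, reads per gene after each library had been brought to 20000000. Behind them stood an estimated 16460000 to 17320000 reads in the WB1 libraries, and 17140000 and 13740000 in TPC1 replicates 2 and 3, while the depth of TPC1 replicate 1 could not be read from its values.

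Dicer is the RNase III enzyme that cuts hairpin precursors into mature microRNAs of the cytoplasm, which then hold down the translation and stability of many mRNAs at once. Loss of one copy therefore leaves the machinery in place at a lower dose, and DICER1 is known as a gene whose heterozygous loss predisposes to thyroid nodules and tumors. In thyroid epithelium, microRNAs take part in keeping the differentiated state, in cell cycle control and in the damping of growth factor signals.

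The guide used for all the clones lies in exon 11 of the 27 exons of the DICER1 reference transcript (GRCh38, chromosome 14, 95115685 to 95115707). A Cas9 cut there falls after base 1872 of the 5766 coding bases, between codons 624 and 625. The part of the exon that surrounds it is shown because it is the place where WB1 differs by design from TPC1. It is printed in the direction of the gene, 5′ to 3′ (chr14:95115667-95115747, minus strand), with the bases matched by the guide and its PAM in capitals.
DICER1 exon 11: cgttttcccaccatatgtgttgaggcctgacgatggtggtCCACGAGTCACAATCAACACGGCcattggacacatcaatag
The cut lies 32.5% of the way along the coding sequence, and a deletion of 7 bases is not a whole number of codons.

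DICER1 itself had 1360, 1129 and 1101 scaled reads in TPC1 and 881, 939 and 815 in WB1, so that the WB1 libraries all lay below the TPC1 libraries. The WB1 mean of 878 ± 62.0 (SD, n = 3) was 73.4% of the TPC1 mean of 1197 ± 142. On the log2(CPM + 1) scale, with CPM the scaled reads per 1000000, which holds for all fold changes given here and understates those of low genes, the change was −0.43 (standard error 0.10, limma adjusted p = 0.00404), which passed the threshold on p and not that of 1.5-fold, and the exact two-sided permutation test gave 0.1, the smallest p that 3 libraries against 3 allow. Correction for GC content moved the fold change to −0.63, past both thresholds.

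The libraries carried the marks of the line rather than of normal thyroid follicles. Among thyroid genes, PAX8, the transcription factor that defines the follicular lineage, was abundant in both lines (7248 to 8549 scaled reads in TPC1, 8397 to 9879 in WB1). TSHR, SLC5A5 and NKX2-1, the genes of the thyrotropin receptor, iodide uptake and lineage identity, were listed at 0 in all 12 libraries. The simple epithelial keratins KRT8 and KRT18 were abundant, and the epithelial adhesion genes EPCAM and CDH1 had at most 2 scaled reads in TPC1 and WB1. Of markers of other cell types, 4 of 5 endothelial, 5 of 6 leukocyte and 3 of 4 neuroendocrine genes had at most 10 scaled reads in each of these 6 libraries, and CDH5, CD3E and LYZ were at 0. The exceptions were TEK, SYP and CD68, the last of which many cell types express. TIE1, an endothelial gene outside this panel, had 46, 54 and 51 scaled reads in TPC1 and 39, 16 and 23 in WB1 (−0.64). Among fibroblast markers DCN was at 0, and COL1A1 had 72 to 92 scaled reads in TPC1 and 56 to 93 in WB1. LUM rose and PDGFRB and THY1 fell, with THY1 going from 51, 38 and 24 to 17, 19 and 13 scaled reads (−0.64).

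WB1 differed from TPC1 at 799 of the 16027 tested genes (4.99%), where a call required 1.5-fold or more and an adjusted p (limma, Benjamini-Hochberg) below 0.05. Of these, 544 were higher in WB1 (3.39% of the tested genes) and 255 lower (1.59%). Most changes were modest: 671 lay between 1.5-fold and 2-fold, 128 reached 2-fold and 9 reached 4-fold. At 2-fold and more, the directions were nearly even, with 67 genes higher and 61 lower. The 3 libraries of WB1 and the 3 of TPC1 did not overlap at 542 of the 544 higher genes and at 252 of the 255 lower genes, against 45.3% of all tested genes. With median-of-ratios scaling in place of the library sums, the balance moved to 418 higher and 331 lower, 55.8% higher in place of 68.1%.

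**Figure D1:**
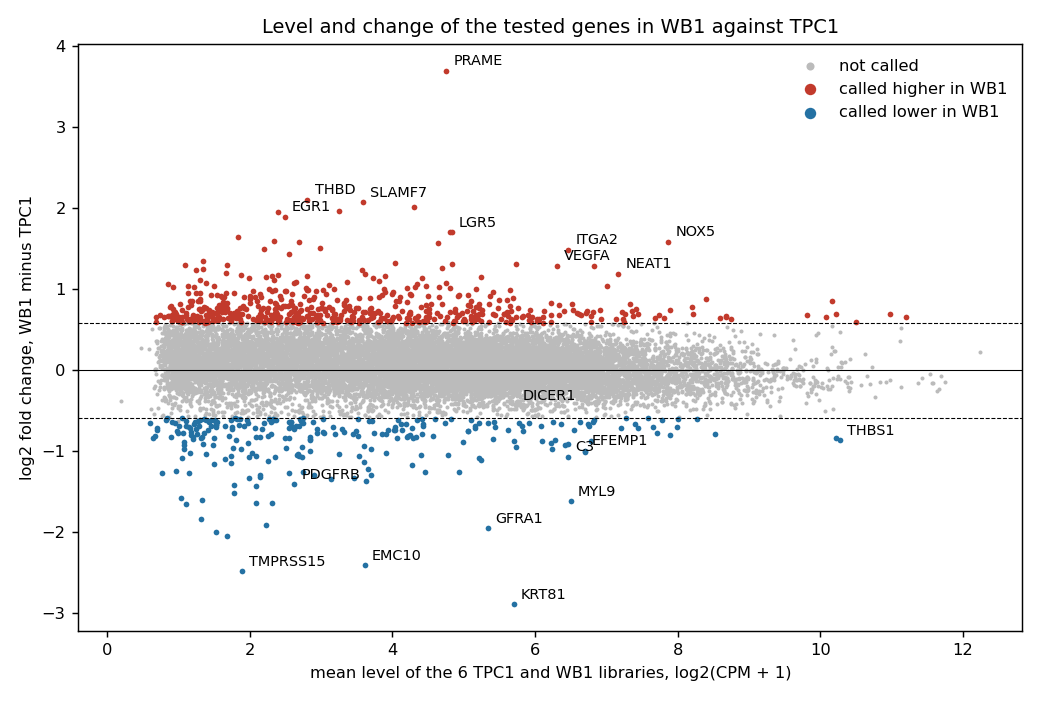
Each point is a tested gene, placed by its mean level over the 6 TPC1 and WB1 libraries on the log2(CPM + 1) scale and by its log2 fold change in WB1 against TPC1. Dashed lines mark 1.5-fold, red points were called higher (544 genes) and blue points lower (255); PRAME stands alone at the top (3.69) and KRT81 at the bottom (−2.89).

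PRAME, a cancer-testis antigen that melanomas and other tumors express, had the largest fitted change of the called genes on the log2(CPM + 1) scale. It had 55, 53 and 65 scaled reads in TPC1 and 921, 1017 and 1012 in WB1, a 17.1-fold ratio of the means (983 ± 54.0 against 57.7 ± 6.43, SD, n = 3 each). The log2 fold change was 3.69 (standard error 0.12, limma adjusted p = 5.54e-12). The next largest rise among genes with at least 5 CPM was 2.10.

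THBD, thrombomodulin, had 26, 53 and 21 scaled reads in TPC1 and 153, 188 and 282 in WB1 (log2 fold change 2.10, limma adjusted p = 1.26e-05). SLAMF7, a receptor otherwise known from lymphocytes, rose from 79, 79 and 60 to 402, 330 and 375 (2.07), with little spread within either line. SIGLEC15, a lectin that binds sialic acids, went from 127, 188 and 102 to 596, 534 and 702 (2.01). MME, the membrane peptidase neprilysin, had 241, 259 and 229 scaled reads in TPC1 and 923, 771 and 810 in WB1 (1.70). LGR5, a receptor for R-spondins that marks stem cells of several epithelia, rose from 219, 400 and 162 to 739, 925 and 856 (1.70). TPC1 replicate 2 was the highest TPC1 library for LGR5 and THBD, and still lay below every WB1 library, as the choice of these genes required.

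EGR1, the immediate early zinc finger factor, had 23, 35 and 25 scaled reads in TPC1 and 140, 189 and 143 in WB1 (1.89, limma adjusted p = 9.96e-06). RFX8, of the RFX family of transcription factors, rose from 20, 33 and 18 to 164, 132 and 145 (1.95). KCTD4, a member of a family of proteins with a potassium channel tetramerisation domain, rose from 59, 49 and 67 to 275, 297 and 282 (1.96). ARHGEF6, an exchange factor for the small GTPases Rac and Cdc42, rose from 40, 34 and 17 to 102, 120 and 175 (1.60). The 12 largest increases among genes with at least 5 CPM were completed by MIR222HG (1.59), the host transcript of 2 microRNAs described further on, and NOX5 (1.58), a calcium-activated NADPH oxidase.

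Among the genes that fell, KRT81 had the largest fitted change on the log2(CPM + 1) scale, which compresses low genes. This hair keratin had 1729, 1716 and 2001 scaled reads in TPC1 and 203, 274 and 212 in WB1, so WB1 kept 12.7% of the parental level (log2 fold change −2.89, standard error 0.13, limma adjusted p = 2.2e-10). The neighbouring and nearly identical KRT86, whose locus overlaps KRT81 on the opposite strand, moved the same way at a much lower level, from 49, 48 and 41 to 18, 25 and 24 (−0.64, limma adjusted p = 0.00184), and reads of these loci may be shared.

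TMPRSS15, which encodes enterokinase, the protease that activates trypsinogen in the gut, was at or under 3 scaled reads in every WB1 library. It had 117, 124 and 78 scaled reads in TPC1 and 3, 2 and 2 in WB1, which corresponds to 4 reads in the 3 WB1 libraries together. The ratio was 67.5, with an exact Poisson 95% interval of 26.3 to 248 from the WB1 reads, which covers counting error only. D11 had 0, 0 and 0 and TD5 2, 3 and 3 scaled reads, so the gene passed the filter on low values through TPC1 alone and could be called only as lower, and the fitted fold change of −2.48 depends on the pseudocount.

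EMC10, a subunit of the ER membrane complex, which inserts membrane proteins, fell from 365, 392 and 421 to 65, 52 and 57 (−2.40, limma adjusted p = 1.47e-09), and the antisense transcript AC020909.3 within it from 113, 137 and 134 to 22, 19 and 17 (−1.91). The library kit keeps the strand, but whether reads were counted by strand is not given in the sources used here, so how far these loci share reads is not known. The same holds for SIGLEC15, KCTD4, MME, VEGFA, MYL9 and BGN, each of which overlaps a tested locus on the opposite strand. The other tested subunits of the complex were not called. D11 and TD5 were lower still at EMC10, with 2, 2 and 5 and 12, 8 and 12 scaled reads. GFRA1, the co-receptor of the growth factor GDNF, fell from 1351, 1174 and 1275 to 327, 299 and 312 (−1.95), and PDGFRB, the receptor of PDGF-BB, from 192, 112 and 177 to 37, 56 and 48 (−1.41). At both genes every WB1 library lay below the TPC1 range, as the choice of these genes required. CD33, a lectin otherwise typical of myeloid cells, fell from 113, 128 and 153 to 27, 33 and 25 (−1.64) and the zinc finger gene ZNF266 from 125, 109 and 94 to 17, 19 and 29 (−1.64). The long noncoding RNAs LINC01234 (−1.43) and UCA1 (−1.37) and the matrix proteoglycan BGN (−1.34) closed the 12 largest decreases among genes with at least 5 CPM. UCA1 varied widely in TPC1, between 189 and 497 scaled reads.

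**Figure D2:**
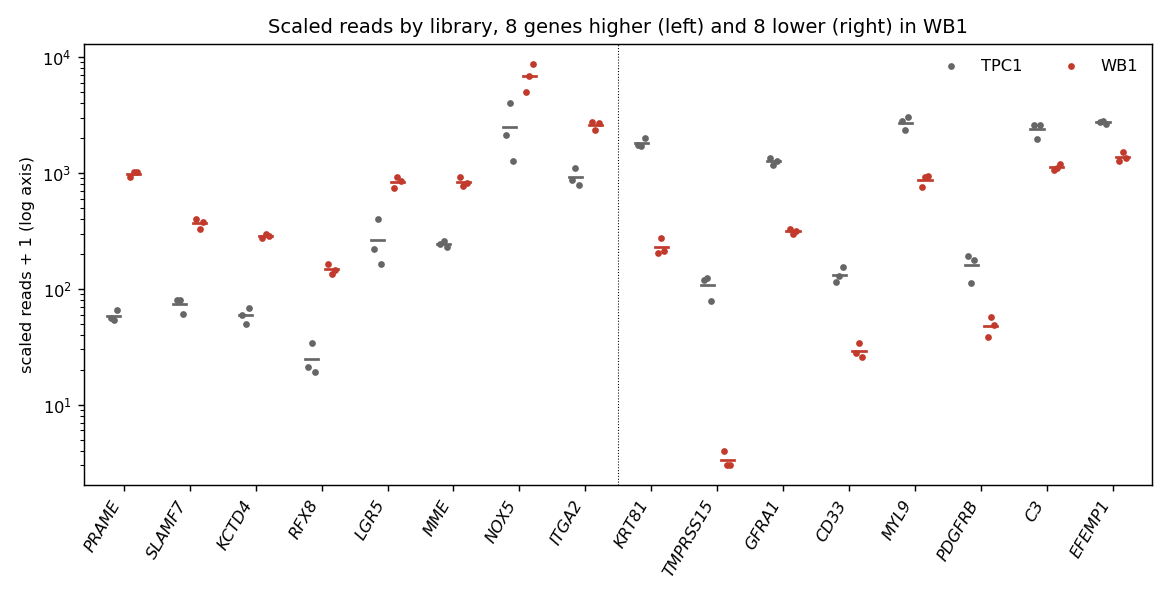
Scaled reads plus 1 on a log axis in each TPC1 library (grey) and WB1 library (red) for 8 genes that rose and 8 that fell, with the mean of each line as a bar. The 3 points of one line do not overlap those of the other at any of the 16 genes, which the choice of genes required. NOX5 has the widest spread within TPC1 (1278 to 4008).

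Among genes with at least 50 CPM over both lines, NOX5 had the largest increase. ITGA2, the collagen-binding integrin subunit, rose from 864, 1097 and 789 scaled reads to 2729, 2349 and 2684 (1.49, limma adjusted p = 3.41e-06). VEGFA, the main growth factor for blood vessels, rose from 847, 1141 and 740 to 2116, 2027 and 2523 (1.29), and NRP2, a co-receptor of semaphorins and VEGF, from 1609, 1957 and 1448 to 3646, 3195 and 3486 (1.04). TNC, the matrix glycoprotein tenascin C, rose from 1134, 1819 and 1054 to 3243, 2963 and 3320 (1.28). STC1, a secreted glycoprotein, rose from a mean of 605 ± 185 to 1493 ± 166 (1.31), and RAB31, a small GTPase of vesicle traffic, from 704 ± 38.1 to 1324 ± 93.5 (0.89). TPC1 replicate 2 was again the highest TPC1 library for ITGA2, VEGFA, NRP2, TNC and STC1.

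Of the genes at this level that fell, KRT81 came before MYL9. MYL9, the regulatory light chain of smooth muscle and nonmuscle myosin, had 2781, 2345 and 3008 scaled reads in TPC1 and 755, 920 and 938 in WB1 (−1.62, limma adjusted p = 3.01e-08). C3, the central complement component, went from 2598, 1969 and 2579 to 1067, 1092 and 1195 (−1.07), and EFEMP1, the matrix protein fibulin-3, from 2771, 2797 and 2650 to 1259, 1502 and 1339 (−1.0). SLC48A1, a heme transporter, had a mean of 2757 ± 124 in TPC1 and 1377 ± 257 in WB1 (−1.01), and RAPGEF3, the cAMP-activated exchange factor EPAC1, 1981 ± 222 and 1012 ± 228 (−0.97). The last 2 genes overlap on opposite strands of chromosome 12. SERINC2 fell from 2233 ± 121 to 1172 ± 116 (−0.92).

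Set against the other clones, WB1 differed at 456 genes from D11 (2.85% of those tested) and at 373 from TD5 (2.33%). It was called in the same direction against TPC1, D11 and TD5 at 22 genes that were higher and 12 that were lower, among genes with at least 5 CPM in the highest line. The higher ones were led by PRAME, which had a mean of 296 in D11 (282 to 311) and 10.0 in TD5 (5 to 16), so WB1 exceeded D11 by 1.66 (limma adjusted p = 8.83e-08) and TD5 by 5.08 (limma adjusted p = 2.57e-14) on the log2 scale. The same gene thus lay above the parental level in D11 and below it in TD5.

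LUM, which encodes the collagen-binding proteoglycan lumican, went apart in another way. It had 78, 73 and 63 scaled reads in TPC1, 138, 212 and 148 in WB1, none in D11 and 2, 0 and 0 in TD5. WB1 was at least 43.9-fold higher than D11, reckoned against a floor of 3 reads per D11 library. Against TPC1 it rose by 1.01 (limma adjusted p = 0.000114). ARHGEF6 was likewise low in both other clones, with 9, 8 and 19 scaled reads in D11 and 0, 0 and 3 in TD5 against 102 to 175 in WB1. NOV, the matricellular protein CCN3, had 387, 298 and 279 in WB1, 110 to 146 in TPC1, 64 to 75 in D11 and 43 to 82 in TD5. For these 3 genes the libraries of the other clones lay below all the TPC1 libraries, except that ARHGEF6 in D11 replicate 3 (19) lay above TPC1 replicate 3 (17).

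ATP6V0D2, a subunit of the vacuolar proton pump, and the chitinase-like gene CHI3L2 had higher values in the WB1 libraries than in any other. ATP6V0D2 had 148, 86 and 116 scaled reads in WB1 and 9 to 57 in the 9 other libraries. CHI3L2 had 134, 109 and 106 in WB1 against 30 to 67 elsewhere. ADAM12, a metalloprotease that cleaves membrane-bound growth factors, had 827, 795 and 854 in WB1, and its means in TPC1, D11 and TD5 were 470, 480 and 490. GNG2, a G protein gamma subunit, had 175, 157 and 137 in WB1 and means of 84.7, 34.7 and 74.3 in TPC1, D11 and TD5, but its rise against TPC1 (0.75) slipped under 1.5-fold with GC correction (0.57) and with a pseudocount of 4 (0.52).

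Of the 12 lower genes that set WB1 apart, the 8 ranked first by the smallest of their 3 differences were KRT81, GFRA1, PDGFRB, ZNF266, ADAM11, SUSD3, MT1E and SLC16A4. KRT81 had means of 904 in D11 and 1338 in TD5, so that WB1 lay 1.90 (limma adjusted p = 2.27e-08) and 2.43 (limma adjusted p = 1.23e-09) below them on the log2 scale. ADAM11, a member of the ADAM family without protease activity, had 40, 59 and 49 scaled reads in WB1 and means of 146, 150 and 184 in TPC1, D11 and TD5. SUSD3 had 71, 78 and 78 in WB1 and means of 171, 161 and 183 elsewhere in that order. The metallothionein MT1E, a metal-binding protein, had 155, 185 and 190 against means of 318, 440 and 373. The transporter family gene SLC16A4 had 94, 160 and 145, with means of 348, 229 and 293. PDGFRB (means 160, 109 and 150) and ZNF266 (109, 102 and 54.0) were also lowest in WB1.

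**Figure D3:**
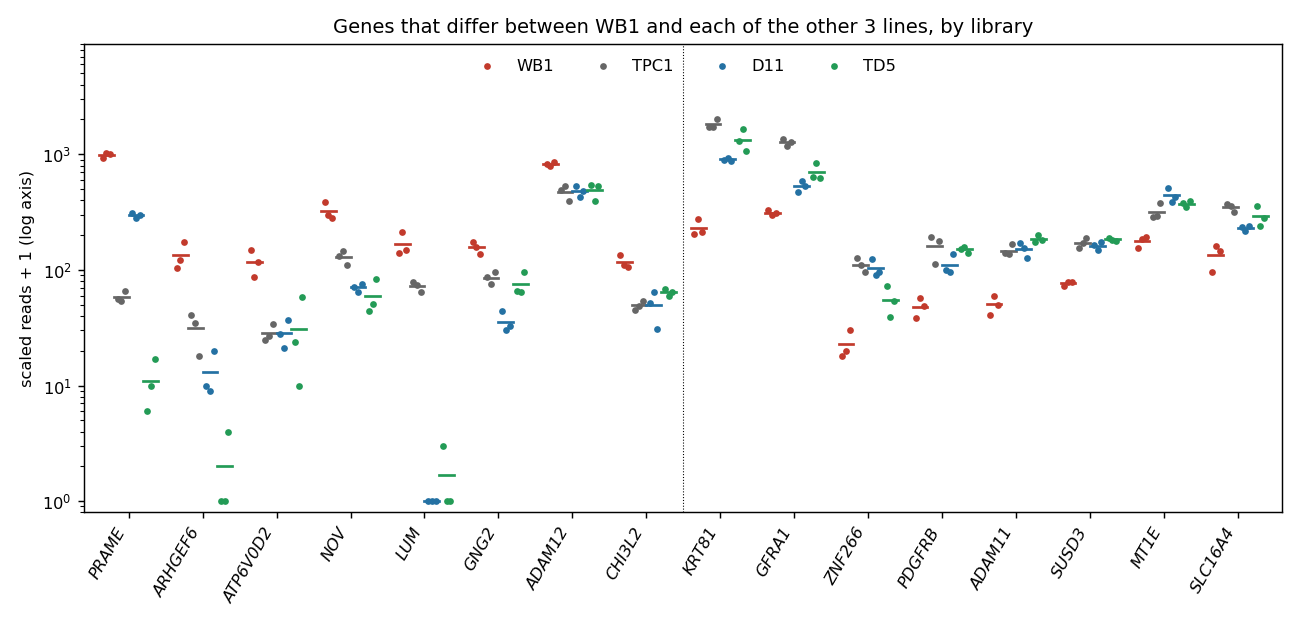
Scaled reads plus 1 on a log axis in every library of WB1 (red), TPC1 (grey), D11 (blue) and TD5 (green) for the 16 genes that set WB1 furthest apart, with the mean of each line as a bar. WB1 lies above the other lines at the 8 genes on the left, up to 1017 scaled reads for PRAME, and below them at the 8 on the right; points at 1 stand for libraries listed at 0.

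Interferons act through the transcription factors ISGF3 and the IRF family on promoters that hold the interferon-stimulated response element. Of 53 tested genes of this list, 8 rose in WB1 (15.1%) and 3 fell (5.66%), against 3.39% and 1.59% of all tested genes. The other 42 were not called, and the list had a median log2 fold change of 0.20 against 0.06 over all tested genes. The members that rose were IFI44L, RSAD2, CMPK2, IFIT3, IFIT2, IFIT1, OASL and IFI44, of which IFIT1, IFIT2 and IFIT3 block the translation of viral RNA and RSAD2 encodes the antiviral enzyme viperin. OAS1 and OAS3, which sense double-stranded RNA, and TRIM22 fell.

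The promoters of 3 of these genes are shown because the element could be searched in them (RefSeq, GRCh38.p14, 250 bases up to the start site, 5′ to 3′ in the direction of the gene, all on the plus strand). Capitals mark a core of the element on either strand, a pair of GAAA repeats with any 2 bases between them, which is held by 3.02% of the 35116 promoter windows of this length.
IFI44L, chr1:78620198-78620447: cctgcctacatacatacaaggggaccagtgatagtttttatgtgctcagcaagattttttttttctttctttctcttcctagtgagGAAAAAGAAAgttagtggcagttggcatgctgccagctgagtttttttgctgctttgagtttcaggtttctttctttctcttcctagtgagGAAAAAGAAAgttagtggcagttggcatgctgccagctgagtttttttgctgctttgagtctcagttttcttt
IFIT1, chr10:89392373-89392622: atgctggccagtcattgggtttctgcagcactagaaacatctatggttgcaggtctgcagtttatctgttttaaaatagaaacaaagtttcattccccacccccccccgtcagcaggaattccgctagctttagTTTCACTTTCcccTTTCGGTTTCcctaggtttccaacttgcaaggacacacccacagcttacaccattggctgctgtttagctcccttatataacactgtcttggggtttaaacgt
OAS3, chr12:112938224-112938473: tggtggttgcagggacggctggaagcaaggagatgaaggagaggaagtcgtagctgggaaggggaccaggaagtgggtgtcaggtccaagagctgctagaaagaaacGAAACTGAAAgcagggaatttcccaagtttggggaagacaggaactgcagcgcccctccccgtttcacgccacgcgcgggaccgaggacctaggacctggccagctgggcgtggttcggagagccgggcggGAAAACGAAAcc
Of the 8 members that rose, 6 had a promoter in the table and 5 of these held the motif at 1 start site or more, as did 18 of 33 members that were not called. OAS3, which fell, held it as well, and OAS1 did not in this window.

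IFIT3 had 427, 467 and 386 scaled reads in TPC1 and 860, 660 and 630 in WB1 (0.71, limma adjusted p = 0.000241). IFIT1 had 423, 466 and 324 and then 725, 632 and 581 (0.66), and IFIT2 259, 293 and 261 and then 500, 437 and 419 (0.70). IFI44L rose from 30, 24 and 21 to 72, 96 and 77 (1.17). RSAD2 had only 2, 6 and 2 scaled reads in TPC1 and 40, 27 and 21 in WB1 (1.07). It passed the filter on low values through WB1 alone, so it could be called only as higher. Lines did not overlap at these 5 genes. WB1 replicate 1 was the highest WB1 library at 7 of the 8 members, and without it, or with GC correction, 4 list members were called higher.

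Set against D11, 7 list members were called higher in WB1 and 2 lower, and against TD5 7 were higher and 1 lower. Of all tested genes, 2.85% were called in either direction against D11 and 2.33% against TD5. IFIT3 exceeded D11 by 0.87 (limma adjusted p = 4.26e-05) and TD5 by 0.65 (limma adjusted p = 0.00125), and IFI44L by 1.52 and 1.05. OAS1 took the opposite course: it fell from 86, 62 and 69 scaled reads to 20, 20 and 25 (−1.14, limma adjusted p = 6.73e-05), to the level of D11 (mean 28.7) and TD5 (20), and its difference from D11 was −0.22 (limma adjusted p = 0.481). OAS3 fell in WB1 from 1095, 955 and 1108 to 653, 591 and 682 (−0.70) and was lower there than in D11 (−0.68, limma adjusted p = 3.41e-05). TRIM22, an antiviral ubiquitin ligase, had 67, 55 and 28 scaled reads in TPC1 and 33, 19 and 21 in WB1 (−0.63, limma adjusted p = 0.0179), and the lines overlapped. The MHC class I genes, a further set of interferon targets, had 0 calls among 21 (median 0.00).

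The list of hypoxia and glycolysis genes holds targets of the factor HIF-1, which is stabilised at low oxygen and turns on glucose breakdown and vessel growth. Of 33 tested members 8 rose (24.2%) and 0 fell, against 3.39% and 1.59% of all tested genes, with a median of 0.14. On p alone 14 were higher and 6 lower, against 18.6% and 12.3% of all tested genes. The lower ones were genes of glucose uptake and glycolysis, namely ALDOA (−0.29), PGAM1 (−0.25), SLC2A1 (−0.23), GPI (−0.22), TPI1 (−0.18) and PFKFB3 (−0.18). The summed scaled reads of the list were 328518 to 378094 in TPC1 and 323857 to 356498 in WB1, so the lines overlapped. ANGPTL4, which inhibits lipoprotein lipase, rose from 147, 227 and 133 to 331, 455 and 563 (1.31, limma adjusted p = 7.6e-05). PFKFB4, which sets the rate of glycolysis, rose from 270, 383 and 265 to 645, 699 and 1048 (1.31). ADM, adrenomedullin, went from 70, 76 and 59 to 117, 128 and 157 (0.80). The other called members were VEGFA, NDRG1 (0.74), the glycolytic enzyme ENO2 (0.73), PDK1, which diverts pyruvate from the mitochondria (0.72), and the mitophagy receptor BNIP3L (0.68).

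The PFKFB4 promoter is given as the example of the HIF site in this group (RefSeq, GRCh38.p14, minus strand), with matches to ACGTG or GCGTG on either strand in capitals. One or the other is held by 43.2% of the promoter windows.
PFKFB4, chr3:48556804-48557053: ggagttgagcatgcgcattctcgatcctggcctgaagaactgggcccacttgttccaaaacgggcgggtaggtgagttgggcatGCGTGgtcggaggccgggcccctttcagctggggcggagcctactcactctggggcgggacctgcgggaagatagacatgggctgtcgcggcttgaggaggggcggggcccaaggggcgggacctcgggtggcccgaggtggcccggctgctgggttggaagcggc
All 5 called members with a promoter in the table held one of them, and so did 19 of 23 members that were not called.

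WB1 replicate 3 was the highest WB1 library at all 8 of the called hypoxia members, and TPC1 replicate 2 the highest TPC1 library at 7. Without WB1 replicate 3, 5 list members were called higher. The differences from D11 were called at 5 list members, all higher in WB1, with ANGPTL4 at 1.80 (limma adjusted p = 2.9e-06) and PFKFB4 at 1.25 (limma adjusted p = 0.000646). Of all tested genes, 2.85% differed from D11 in either direction. TD5 had 11 members called higher against TPC1, a contrast whose share over all tested genes is not given here. The difference of WB1 from TD5 was −0.17 at PFKFB4 (mean 906 against 797 in WB1, limma adjusted p = 0.60) and 0.01 at ADM (mean 134 in both, limma adjusted p = 0.967). In D11 none of the list was called.

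**Figure D4:**
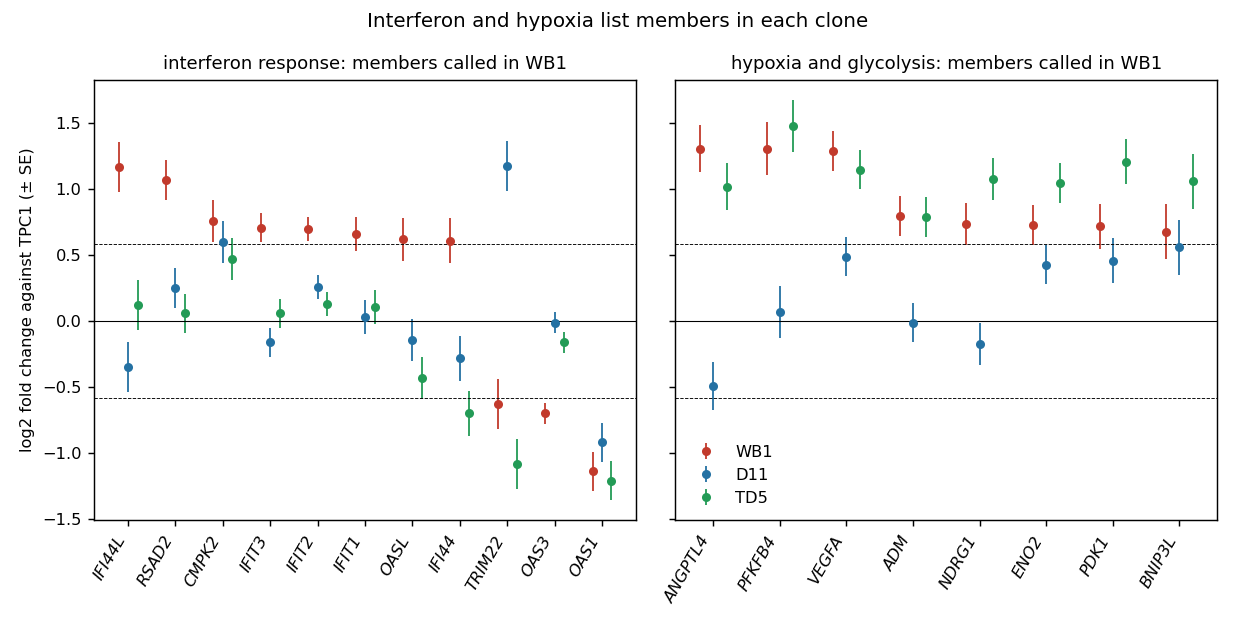
Log2 fold change against TPC1 with its standard error for the interferon members (left) and hypoxia members (right) called in WB1, in WB1 (red), D11 (blue) and TD5 (green), which share the TPC1 libraries. At the left, WB1 stands above the other clones from IFI44L (1.17) to IFI44 (0.61); at the right, D11 lies below WB1 and TD5 at every gene, and TD5 lies above WB1 at PFKFB4, NDRG1, ENO2, PDK1 and BNIP3L.

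NF-kB is a transcription factor of inflammation. Of 27 tested targets and cytokines, 6 fell (22.2%) and 1 rose (3.7%), against 1.59% and 3.39% of all tested genes, with a median of −0.21. ICAM1, the adhesion molecule for leukocytes, had 95, 60 and 95 scaled reads in TPC1 and 4, 7 and 3 in WB1 (−2.05). It passed the filter on low values through TPC1 alone, so it could be called only as lower. NFKB2, which encodes a subunit of the factor itself, fell from 1479, 1148 and 1522 to 682, 692 and 734 (−0.95), and its partner RELB from 529, 388 and 587 to 318, 332 and 302 (−0.61). NFKB2 lies among 25 neighbouring genes of chromosome 10 with a median of −0.33, of which 21 were below 0 and NFKB2 was the 1 called. The relation of this stretch to the fall of NFKB2 was not tested. The cytokine IL6 had 257, 171 and 213 scaled reads in TPC1 and 140, 106 and 98 in WB1 (−0.79). IL32 (−1.07) and the signaling adaptor TRAF1 (−0.90) fell as well. NFKBIZ, an atypical inhibitor and co-factor, rose from 799, 769 and 600 to 1226, 1375 and 1168 (0.79). No member of this list was called between WB1 and D11, while 5 were higher and 1 lower in WB1 than in TD5. The shares of all tested genes called in either direction were 2.85% for D11 and 2.33% for TD5.

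The 2 immediate early genes that rose were EGR1 and FOS, both targets of serum response factor. The EGR1 promoter is printed because EGR1 was among the largest changes and because this site, the CArG box, is rare (1.16% of promoter windows hold one). It lies on the plus strand (RefSeq, GRCh38.p14), with CArG boxes in capitals.
EGR1, chr5:138465229-138465478: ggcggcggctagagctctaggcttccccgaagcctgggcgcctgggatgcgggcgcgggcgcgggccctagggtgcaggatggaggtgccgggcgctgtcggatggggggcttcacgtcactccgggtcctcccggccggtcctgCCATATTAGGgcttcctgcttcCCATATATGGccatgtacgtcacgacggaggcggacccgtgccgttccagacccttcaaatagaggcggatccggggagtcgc
FOS had 16, 10 and 8 scaled reads in TPC1 and 52, 47 and 43 in WB1 (1.11, limma adjusted p = 6.31e-05). BTG2, an antiproliferative gene, fell from 429, 309 and 350 to 205, 185 and 211 (−0.79). The remaining 19 of the 22 tested immediate early genes were not called. EGR1 in WB1 (157 ± 27.5) was lower than in D11, where the mean was 343 (difference −1.02, limma adjusted p = 0.00379), and its difference from TD5 (mean 258) did not pass the test (−0.61, limma adjusted p = 0.0581). Of 21 genes of MAPK output, ETV1 (0.74), PHLDA1 (0.65) and DUSP4 (0.59) rose, and 1 member was called higher without TPC1 replicate 3 or with GC correction.

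Cell cycle genes shifted by small amounts in opposite directions. Of 52 tested S-phase genes, 3 fell past 1.5-fold and none rose, with a median of −0.19. The threshold on p alone, at any fold, was passed by 23 that were lower and 1 that was higher, against 12.3% lower and 18.6% higher of all tested genes. CCNE1, the cyclin that drives entry into S phase, had 308, 264 and 249 scaled reads in TPC1 and 147, 145 and 146 in WB1 (−0.82, limma adjusted p = 2.05e-05). The DNA repair enzyme UNG fell from 1509, 1336 and 1373 to 752, 857 and 882 (−0.75), and the transcription factor E2F1 from 692, 572 and 647 to 409, 392 and 385 (−0.66). G2/M genes went the other way: 34 of 54 were higher on p alone, none was lower, and the median was 0.31. NEK2, NUF2 and CKAP2L, which act at the centrosome, kinetochore and spindle, passed 1.5-fold (0.60, 0.59 and 0.59). That count was 0 without TPC1 replicate 2 or without WB1 replicate 1, 5 without TPC1 replicate 1 and 7 without WB1 replicate 3. It was 0 with GC correction, median-of-ratios scaling or a pseudocount of 4.

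Among the cyclins and CDK inhibitors, CCND3 fell together with CCNE1, from 1879, 1764 and 1888 to 1144, 1235 and 1154 (−0.64). Toward D11, the S-phase list of 52 tested genes held 7 called lower in WB1 and none higher. Of all tested genes, 2.85% were called between WB1 and D11 in either direction. Of 27 p53 targets, GDF15, a stress cytokine, fell from 465, 412 and 486 to 256, 230 and 256 (−0.83), and PMAIP1, which promotes apoptosis, rose (0.60). D11 had 6 p53 targets higher than TPC1, a contrast whose share over all tested genes is not given here. Between WB1 and D11, 7 of the list were lower in WB1, against the same 2.85% of all tested genes. Among caspases and apoptosis genes, CASP10, an initiator caspase, had 57, 55 and 63 scaled reads in TPC1 and 3, 0 and 3 in WB1, at least 16.4-fold lower against a floor of 3 reads per library, and it too passed the filter through TPC1 alone.

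Of 33 matrix proteases and inhibitors, 6 rose (18.2%) and 1 fell (3.03%), against 3.39% and 1.59% of all tested genes, with a median of 0.16. ADAM8 rose from 69, 65 and 63 scaled reads to 174, 137 and 213 (1.17, limma adjusted p = 0.000163), and MMP3, stromelysin, from 11, 7 and 6 to 65, 30 and 24 (1.03). MMP3 passed the filter on low values through WB1 alone, so it could be called only as higher. MMP16 (0.63), the protease inhibitor SERPINE2 (0.60), ADAM12 (0.80) and ADAM19 (0.59) were also higher, and ADAMTS15 was lower (−0.74). Without TPC1 replicate 3, 3 members were called higher. Of 36 collagens and matrix genes, 5 fell (13.9%) and 2 rose (5.56%), against 1.59% and 3.39% of all tested genes, with a median of −0.03. The thrombospondin THBS1 was the most abundant of them, with 35354, 29263 and 30709 scaled reads in TPC1 and 13809, 22145 and 17288 in WB1 (−0.86). LOXL4, which crosslinks collagen, fell (−1.04), as did COL4A4 (−0.86), EFEMP1 and BGN, while COL7A1, the anchoring fibril collagen, rose from 245, 188 and 292 to 522, 471 and 437 (0.94).

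Axon guidance genes, many of which also steer vessels and migrating cells, held 6 increases (12.8%) and 2 decreases (4.26%) among 47. The shares over all tested genes were 3.39% and 1.59%, and the list median was −0.01. On p alone 11 were higher and 10 lower, against 18.6% and 12.3% of all tested genes. Beside NRP2 (1.04), its relative NRP1 rose from 2499, 2915 and 2000 to 3973, 3868 and 4333 (0.73). The ephrin receptor EPHB2 rose from 212, 216 and 216 to 391, 339 and 338 (0.68). PLXNA4 (0.90), EFNB2 (0.60) and SLIT2 (0.59) were higher, and SEMA3E (−0.97) and EPHA5 (−0.65) lower. SEMA3E passed the filter on low values through TPC1 alone and could be called only as lower. Without TPC1 replicate 3, 3 were called higher. Of 15 genes of epithelial-mesenchymal transition, the cadherin CDH6 rose from 273, 347 and 241 to 649, 649 and 834 (1.26), P-cadherin CDH3 from 11, 5 and 12 to 32, 21 and 32 (0.72), and the repressor ZEB1 from 1082, 1038 and 897 to 1498, 1709 and 1497 (0.63). CDH3 passed the filter on low values only through the WB1 libraries, so it could be called only as higher. Without WB1 replicate 1, 5 of the list were called higher. The count was 2 without TPC1 replicate 3, and 2 with median-of-ratios scaling, GC correction or a pseudocount of 4.

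Of 32 receptors and growth factors, 4 fell (12.5%) and 1, VEGFA, rose (3.12%), against 1.59% and 3.39% of all tested genes, with a median of −0.08. Beside GFRA1 and PDGFRB, FGFR3 fell from 341, 217 and 348 to 141, 135 and 161 (−0.93), and the EGF receptor ligand AREG from 50, 45 and 59 to 21, 26 and 24 (−0.70). In the Wnt and Notch list, 4 of 33 rose (12.1%) and 2 fell (6.06%), against 3.39% and 1.59% of all tested genes. The Wnt target AXIN2 rose from 28, 37 and 30 to 52, 77 and 109 (0.91), the receptor FZD4 from 301, 363 and 303 to 514, 589 and 568 (0.76), and WNT9A and LGR5 rose with them. DKK1, a secreted Wnt inhibitor, fell from 440, 365 and 366 to 207, 265 and 208 (−0.74), and NOTCH3 by 0.61. DKK1 in WB1 also lay below D11 (−0.79, limma adjusted p = 0.000103).

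Among genes of thyroid differentiation, 1 fell. FOXE1, the thyroid forkhead factor, had 316, 286 and 280 scaled reads in TPC1 and 151, 132 and 112 in WB1 (−1.06, limma adjusted p = 5.16e-05). FOXE1 had 123 to 171 scaled reads in D11 and 93 to 131 in TD5, and the differences from them were −0.10 (limma adjusted p = 0.756) and 0.15 (limma adjusted p = 0.497). The amino acid transporter SLC7A5 and its partner SLC3A2, which form a heterodimer, fell from 29493, 27922 and 34470 to 16396, 17360 and 17331 (−0.84) and from 8970, 8424 and 10443 to 5358, 5222 and 5486 (−0.79). They were the called members among 40 genes of the unfolded protein and ATF4 response, and 4 were called without TPC1 replicate 2 or WB1 replicate 1.

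The microRNA machinery itself was not changed past 1.5-fold: of 19 tested genes of microRNA biogenesis, none was called and the median was 0.00. On p alone 5 were higher and 3 lower, against 18.6% and 12.3% of all tested genes. Host transcripts of microRNAs rose at 5 of 13 tested loci (38.5%) and fell at none, against 3.39% higher of all tested genes, with a median of 0.55. They are long RNAs that carry microRNA hairpins, so they stand upstream of the step that Dicer performs, and mature microRNAs were not measured in these libraries. MIR222HG had 38, 42 and 50 scaled reads in TPC1 and 162, 236 and 126 in WB1 (limma adjusted p = 6.38e-06). MIR210HG, which holds the hypoxia-regulated miR-210, rose from 35, 61 and 35 to 132, 124 and 199 (1.43). MIR100HG rose from 94, 117 and 60 to 153, 248 and 188 (0.98). MIR155HG (0.78) and MIR193BHG (0.67) were higher at low levels, between 12 and 71 scaled reads. Without TPC1 replicate 3, 3 host transcripts were called higher.

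Some of the mature microRNAs that lie inside 3 of these host loci on the same strand are shown to relate the transcripts to their products (RefSeq, GRCh38.p14, 5′ to 3′). The seed, bases 2 to 8, is in capitals. Other mature microRNAs of the same loci, such as hsa-miR-222-5p, are not printed.
hsa-miR-221-3p in MIR222HG: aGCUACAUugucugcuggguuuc
hsa-miR-222-3p in MIR222HG: aGCUACAUcuggcuacugggu
hsa-miR-210-3p in MIR210HG: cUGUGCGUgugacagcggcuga
hsa-let-7a-5p in MIR100HG: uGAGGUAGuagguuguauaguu
hsa-miR-125b-5p in MIR100HG: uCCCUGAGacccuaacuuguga
hsa-miR-100-5p in MIR100HG: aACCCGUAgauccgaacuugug
The 2 microRNAs shown for MIR222HG share their seed, and the others shown have seeds of their own. Of 23 tested let-7 targets, HMGA2, a chromatin protein of the embryo and of tumors, rose from 1217, 1383 and 1341 scaled reads to 2440, 2409 and 2127 (0.81, limma adjusted p = 0.00117), while CDC25A (−0.65) and THBS1 fell, and the median was 0.08. HMGA2 had means of 2185 in D11 and 1921 in TD5.

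Nuclear-retained and mitochondrial RNAs were higher in WB1. All 15 tested nuclear-retained RNAs were above 0 and the median was 0.41. Of them 6 (40%) were called higher, against 3.39% of all tested genes. NEAT1, the scaffold of paraspeckles, rose from 1704, 1486 and 2024 to 4214, 4314 and 3426 (1.19, limma adjusted p = 1.1e-06), and MALAT1 from 701, 407 and 568 to 1193, 1105 and 871 (0.92). GOLGA8A (1.14), GOLGA8B (1.08), CCNL1 (0.82) and CCNL2 (0.65) completed the called members. Of 37 mitochondrially encoded genes, 25 (67.6%) were called higher and none lower. Together the 37 genes took 1.90 to 2.22% of the scaled reads in WB1 against 1.33 to 1.45% in TPC1. With GC correction 11 mitochondrial genes were called higher. D11 showed both, with 7 nuclear-retained RNAs and 25 mitochondrial genes higher than TPC1. No member of either list was called between WB1 and D11, against 2.85% of all tested genes. Their part in the other results was not tested.

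The change in WB1 went with the base composition of the transcripts. In the lowest of 10 equal groups of genes by GC content the median log2 fold change was 0.23, with 4.67% of genes called higher and 0.379% lower. In the highest group it was −0.13, with 1.14% higher and 2.90% lower. D11 ran from 0.29 to −0.14 over the same groups and TD5 from 0.05 to 0.00. After correction of each library for GC content, 390 genes were higher and 250 lower.

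**Figure D5:**
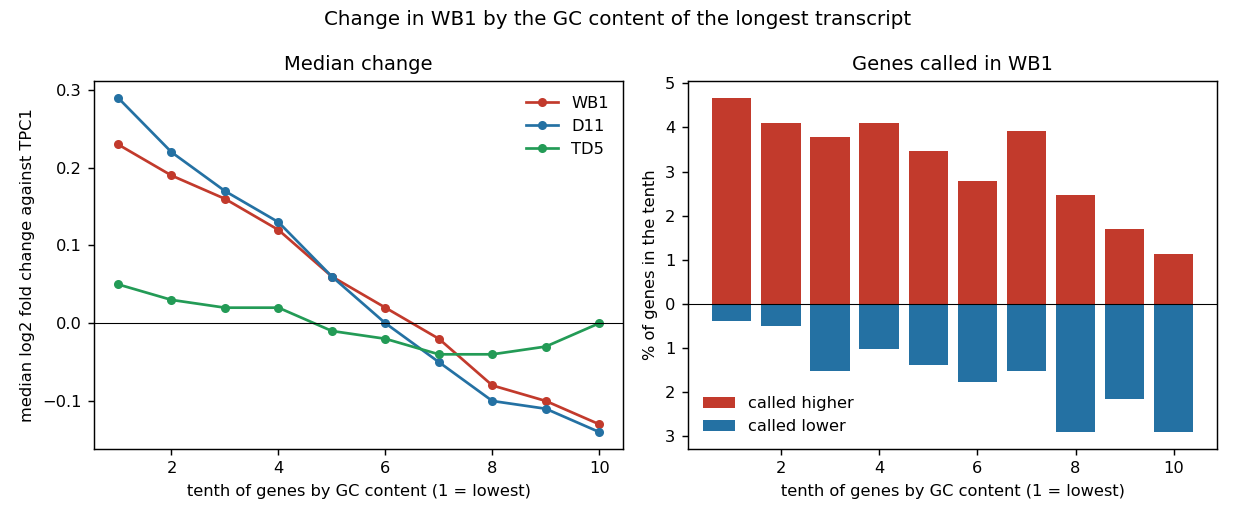
The left panel gives the median log2 fold change against TPC1 in 10 equal groups of genes ordered by the GC content of their longest transcript, for WB1, D11 and TD5, and the right panel the percent of genes in each group called higher (up) or lower (down) in WB1. WB1 falls from 0.23 to −0.13 along the axis and D11 runs with it, whereas TD5 stays between −0.04 and 0.05.

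The calls of several further lists are given with their shares, against 3.39% higher and 1.59% lower of all tested genes. In the cholesterol list 3 of 31 rose (9.68%), INSIG1 (0.76), STARD4 (0.71) and SCD (0.69), and none fell, with overlapping libraries at SCD. Of 32 genes of the TGF-beta and BMP pathways, LTBP1 (0.90) and BMP6 (0.68) rose (6.25%) and ID3 (−0.65) fell (3.12%). Of 24 YAP/TEAD targets, NT5E (0.81) rose (4.17%), and CTGF (−0.61) and NUAK2 (−0.84) fell (8.33%). ITGA2 was the 1 call among 20 integrins and laminins (5% higher). KRT81 and KRT86 were the calls among 10 keratins (20% lower). MT1E was the call among 11 metallothioneins and S100 genes (9.09% lower), and HIST1H1C (−0.83) the call among 15 histone genes (6.67% lower). Of 375 ZNF genes, 8 rose (2.13%) and 12 fell (3.2%), against 3.39% and 1.59% of all tested genes. Those counts were 5 and 8 without TPC1 replicate 3, 13 and 10 without WB1 replicate 3, 12 and 8 without TPC1 replicate 1, 1 and 13 with GC correction and 1 and 4 with a pseudocount of 4. No member was called among 25 NRF2 targets (median −0.10), 79 ribosomal protein genes (−0.04), 17 snoRNA host transcripts (0.08) or 10 reference genes (0.01).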

How the data were processed

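RNA of 3 libraries each of TPC1, WB1, D11 and TD5 was sequenced as stranded mRNA libraries. Per the submitters' processing notes and the study's methods, the authors aligned reads with STAR 2.5.3a to GRCh38 and counted them per gene with HTSeq 0.9.1 on Ensembl release 90 annotation, with the strand setting not given in the sources used here. The deposited values are scores, not raw counts: the authors brought each library to 20000000 reads, and the values were rounded up to whole numbers. A count model was therefore replaced by limma 3.58.1 (R 4.3.3) with a trended prior, on log2 of the value per 1000000 (CPM) with a pseudocount of 1. One mean per line was fitted over all 12 libraries to the 16027 of 58302 genes with at least 1 CPM in at least 3 libraries. A call required 1.5-fold or more and an adjusted p (Benjamini-Hochberg) below 0.05. Read depth was estimated from whole numbers that never occur in a library, and intervals and floors (3 reads) cover counting error only. Gene positions came from GENCODE 44.

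The text names DICER1, the 12 largest called changes each way among genes with at least 5 CPM, and the 8 largest with at least 50 CPM. Both of these sets were drawn from genes whose WB1 and TPC1 libraries did not overlap. Also named are the 8 that differed most from all other lines, and up to 4 called members each way of every gene list. Other called list members were named after their values were seen. The members and lists were chosen with earlier results of these data known. Results for a few genes are not reported here. Scripts were tested on simulated data. The alternatives were another scaling, other pseudocounts, filters and fold thresholds, voom on estimated reads, GC correction, fits of TPC1 and WB1 alone, a replicate block and each library left out.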

Additional observations from a re-analysis of the deposited data

Results flagged for a closer look

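The results here were singled out because WB1 differed from another clone in the limma test of that difference (adjusted p under 0.05 and at least 1.5-fold), and the values are log2 differences of WB1 minus the other clone. All the clones were set against the same TPC1 libraries.

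Compared with D11, WB1 was higher at KCTD4 (3.30), LUM (3.20), ARHGEF6 (2.24), NOV (1.92), EMC10 (1.76), GNG2 (1.69), PRAME (1.66), ATP6V0D2 (1.51) and THBD (1.46). Next came NOX5 (1.34), STC1 (1.19), BGN (1.18), LGR5 (1.05), CHI3L2 (1.02), TNC (0.95), AC020909.3 (0.93), C3 (0.90) and VEGFA (0.80). The remaining genes higher than in D11 were NRP2 (0.78), ADAM12 (0.76), ITGA2 (0.71), RFX8 (0.69) and LINC01234 (0.67). Compared with D11, WB1 was lower at KRT81 (−1.90), ZNF266 (−1.55), ADAM11 (−1.29), MYL9 (−1.22), MT1E (−1.22), EGR1 (−1.02), PDGFRB (−0.95), SUSD3 (−0.92) and SLC16A4 (−0.73). The remaining genes lower than in D11 were GFRA1 (−0.72), SERINC2 (−0.71) and CD33 (−0.64).

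Compared with TD5, WB1 was higher at PRAME (5.08), LUM (3.15), ARHGEF6 (2.83), NOV (2.14), SLAMF7 (1.99), ATP6V0D2 (1.55), EMC10 (1.35), RFX8 (1.08) and ITGA2 (1.06). The remaining genes higher than in TD5 were MIR222HG (1.00), GNG2 (0.91), NEAT1 (0.81), ADAM12 (0.74), CHI3L2 (0.71), AC020909.3 (0.68) and MME (0.66). Compared with TD5, WB1 was lower at KRT81 (−2.43), ADAM11 (−1.56), PDGFRB (−1.35), CD33 (−1.33), GFRA1 (−1.10), SUSD3 (−1.08), SLC16A4 (−1.04), MT1E (−1.0) and ZNF266 (−0.82). The remaining genes lower than in TD5 were SERINC2 (−0.78) and C3 (−0.71).

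At some of these genes the other clone was itself called against TPC1 in the opposite direction to WB1, with no overlap of libraries. These were KCTD4, NOV, LUM and GNG2 in D11 and PRAME, ARHGEF6, NOV and LUM in TD5. KCTD4, for example, had 10, 10 and 13 scaled reads in D11 against 59, 49 and 67 in TPC1 and 275, 297 and 282 in WB1. Groups of 3 libraries are too small for a test of single outlying libraries.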

How the results depend on the processing

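Against the 544 higher and 255 lower genes, voom on estimated reads called 900 and 367, a pseudocount of 0.1 called 882 and 351, and a pseudocount of 4 called 213 and 126. A filter of 5 CPM left 365 and 158, no minimum fold change 2983 and 1973, and a fold change of at least 2 left 67 and 61. Median-of-ratios scaling gave 418 and 331, GC correction 390 and 250, no filter 546 and 274, and TPC1 and WB1 alone 538 and 247. Leaving out each library in turn gave 447 to 654 higher and 225 to 311 lower genes. DICER1 lay between −0.49 and −0.34 over those fits, and at −0.63 with GC correction, past both thresholds. The cause of these shifts was not tested. The same-numbered libraries of TPC1 and WB1 did not deviate together (correlations 0.09, −0.05 and 0.09), so the numbers were not taken as pairs, and a replicate block gave 538 and 247 genes with the 2 lines alone and 544 and 255 with all libraries. Of the 48 named genes, 35 differed from D11 and 27 from TD5, with 29 to 37 and 24 to 29 over the alternatives. Part of both counts was fixed in advance, since the 8 genes each way that set WB1 apart were chosen for these differences. Of all tested genes, 2.85% differed from D11 and 2.33% from TD5. TMPRSS15 could not be tested without a TPC1 library or with the filter of 5 CPM, since too few libraries passed. Among the alternatives run, no result was reversed. Depth limits genes near the floor of 3 reads, and 7 called genes had all WB1 libraries at or under it.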

Other observations

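Zinc finger genes of 1 stretch of chromosome 19 (GRCh38, 51571283 to 53430413), chosen after their values were seen, moved in both directions in WB1. Of 18 tested there, 4 were higher, namely ZNF175, ZNF432, ZNF841 and ZNF83, and 5 were lower, namely ZNF616, ZNF480, ZNF28, ZNF468 and ZNF160, 50% called against 4.99% of all tested genes, in a stretch picked for its calls. ZNF28, ZNF468 and ZNF160 passed the filter on low values through TPC1 alone and could be called only as lower. ZNF175 rose from 373, 412 and 293 scaled reads to 537, 561 and 582 (log2 fold change 0.62). ZNF160 had 30, 34 and 22 scaled reads in TPC1 and 0, 0 and 0 in WB1, at least 8.08-fold lower against a floor of 3 reads per library. ZNF28 had 49, 41 and 35 and then 0, 2 and 0. Related zinc finger genes can share reads, and this was not tested.

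PNMA2 and SMIM10 are among the genes that the study took to RT-qPCR, which were chosen on these samples, so their direction is not independent evidence. PNMA2 had 83, 68 and 66 scaled reads in TPC1 and 3, 4 and 2 in WB1, at least 20.4-fold lower against the same floor, and SMIM10 46, 35 and 56 and then 0, 2 and 0, at least 12.9-fold lower. SMIM10 passed the filter on low values through TPC1 alone. Of the 8 such genes tested, 3 could still be tested when any TPC1 library was left out.

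Over 2326 windows of 25 neighbouring genes, each gene with at least 5 CPM, the median log2 fold change ran from −0.33 to 0.34, and shorter stretches were not tested. The lowest window ran from SFXN3 to BORCS7-ASMT on chromosome 10 and holds NFKB2. Its medians against TPC1 were −0.34 in D11 and −0.29 in TD5. By biotype, 4.01% of 2367 long noncoding RNAs were called higher and 1.18% lower, and of 12540 protein-coding genes 3.07% and 1.72%.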
